A study of Mus musculus with 8 samples.

Results

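WNT ligands, their receptors and their secreted regulators were read in lymphatic (LEC) and blood vascular (BEC) endothelial cells of the normal mouse colon. The genes were taken by a rule on their names, which was set with earlier results of these data known. They were the probe sets whose only annotated symbol was Wnt, Fzd, Sfrp, Dkk or Rspo with a digit after it, or was Lrp5, Lrp6, Axin2, Lef1, Tcf7, Ror1, Ror2 or Frzb. This gave 95 probe sets for 49 genes, out of 34945 probe sets with 1 gene that stand for 18193 genes. Tcf7 was not analysed here, since no probe set carried it as its only symbol. The rule also took in Fzd10os, a transcript from the strand opposite to Fzd10 that is not a receptor gene.

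The 4 LEC arrays and the 4 BEC arrays came from the same 4 healthy C57BL/6J mice, 3 female and 1 male, all 8 weeks old and with no treatment. Cells from digested colon were sorted on CD31, CD45.2 and podoplanin, and their RNA was amplified before it was hybridised. Each array holds the cells of 1 mouse, and replicate numbers name the mouse. Pairs were kept by the study for the quality of their RNA and cDNA, and no source used here gives the sort gates. All values are log2 signals of a probe set as deposited. Differences are LEC minus BEC on that scale, tested with limma over 13259 genes, and a gene was called at a Benjamini-Hochberg adjusted p under 0.05. Fewer cells of a type in a sort and less RNA per cell cannot be told apart in these bulk samples.

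WNT proteins are lipid-modified secreted ligands that bind Frizzled (FZD) receptors. With the co-receptors LRP5 or LRP6 they stabilise beta-catenin, which acts in the nucleus through LEF1 and TCF factors, and Axin2 is a common target that feeds back to switch the signal off. Other WNT proteins, WNT5A among them, act through ROR receptors and cell polarity without beta-catenin. R-spondins raise the number of receptors on the surface, while SFRP, FRZB and DKK proteins are secreted antagonists that bind WNT ligands or LRP co-receptors. In the colon the pathway is best known for maintaining crypt stem cells, and in vessels for retinal and brain capillary growth.

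The markers of each cell type followed the labels. Pdpn, among the lymphatic markers, and Pecam1, among those shared by endothelial cells, encode podoplanin and CD31, which were used in the sort. Neither is an independent check of the labels. All 6 measured lymphatic markers were called higher in LEC, with a summed linear signal of 41233 to 68181 in LEC and 1802 to 2896 in BEC. Flt4 was the brightest of them on every BEC array, at 10.73 to 11.42 log2 signal, where the others reached at most 7.51. All 7 blood vascular markers were called lower in LEC, with sums of 158 to 427 in LEC and 18615 to 24851 in BEC. Markers shared by all endothelial cells were also uneven. All 6 had lower means in LEC, Cdh5 was called lower (limma, adjusted p = 0.0252), and their sums were 9660 to 15640 in LEC and 19418 to 28487 in BEC. Fzd4, Lrp5 and Tspan12, described below, had lower means in LEC too, and the relation to these markers was not tested. Markers of other colon cells differed between arrays as well. The 7 fibroblast markers summed to 7308 and 4958 in LEC replicates 2 and 4, 338 and 601 in LEC replicates 1 and 3, and 201 to 373 in BEC. None of the 6 fibroblast markers tested was called, 4 were higher in LEC at an unadjusted p under 0.05, and Lum was under background on 7 of the 8 arrays. Smooth muscle and pericyte markers summed to 126 to 286 in LEC and 817 to 1515 in BEC. Rgs5 was the brightest of them on every BEC array. Of the 5 tested, only Rgs5 was called, lower in LEC (limma, adjusted p = 0.00849), and Pdgfrb had a higher mean in LEC. Epithelial markers summed to 8540 in LEC replicate 3 and to 13076 and 5396 in BEC replicates 3 and 4, against 241 to 472 on the other 5 arrays. Enteroendocrine markers summed to 70.4 to 559 in LEC and to 102, 1750, 9949 and 19128 in BEC replicates 1 to 4. LEC replicate 1 stood apart, with a median Spearman correlation of 0.603 across genes to the other LEC arrays, while those had 0.745 to 0.746 to the arrays of their group. Without it the same 3 members were called as with it. The part of the other cell types in the WNT results was not tested, and counts are also given without the arrays concerned.

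**Figure D1:**
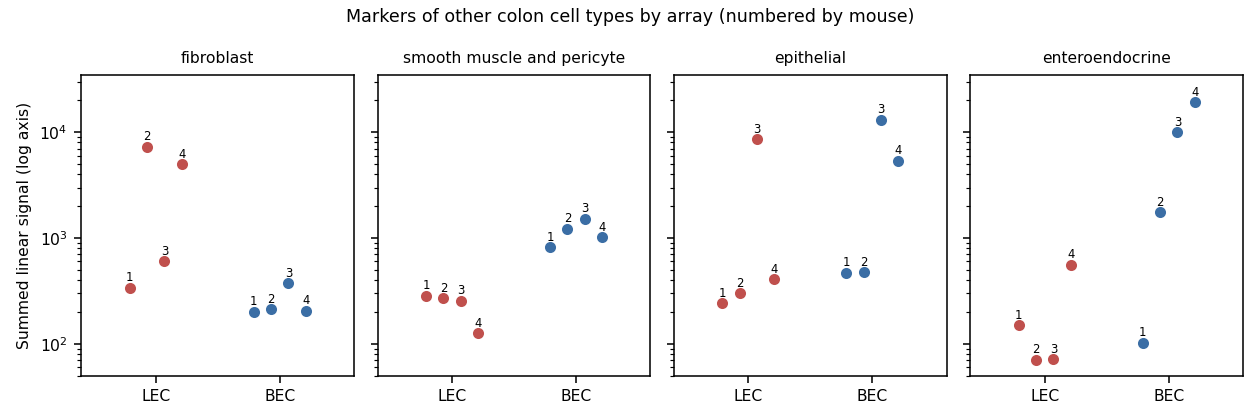
Summed linear signal (log axis) of markers of 4 other colon cell types on each LEC and BEC array, numbered by mouse. Fibroblast markers stand highest in LEC 2 and 4 (7308 and 4958). The smooth muscle and pericyte sum is lower on all LEC than on all BEC arrays, though not each marker is. Epithelial markers stand highest in BEC 3, LEC 3 and BEC 4.

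Most Frizzled genes and both LRP genes were detected in both cell types, whereas most ligand genes were dim. A background level was set on each array from control probe sets for bacterial transcripts. It lay between 3.83 and 4.88 on LEC arrays, and between 3.43 and 4.52 on BEC arrays. By the probe set of the highest mean for each gene, 11 of the 49 genes were above background on all 8 arrays. All 11 are among the 32 members that passed the filter on dim probe sets described below, and 45.0% of all genes that passed it were above background on all 8 arrays. The 11 were 7 of the 10 Frizzled genes (Fzd1, Fzd3, Fzd4, Fzd5, Fzd6, Fzd7 and Fzd10), Lrp5, Lrp6, Wnt4 and Frzb. By the probe set of the highest mean, Wnt1, Wnt10a, Wnt5b and Dkk1 were above background on no array. The other Wnt5b probe set was above it in BEC replicate 1 only, at 6.02. Wnt5a was the only gene above background on all 4 LEC and on 0 BEC arrays, and 0 genes showed the opposite pattern. A value under background is not read as absence of the transcript.

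**Figure D2:**
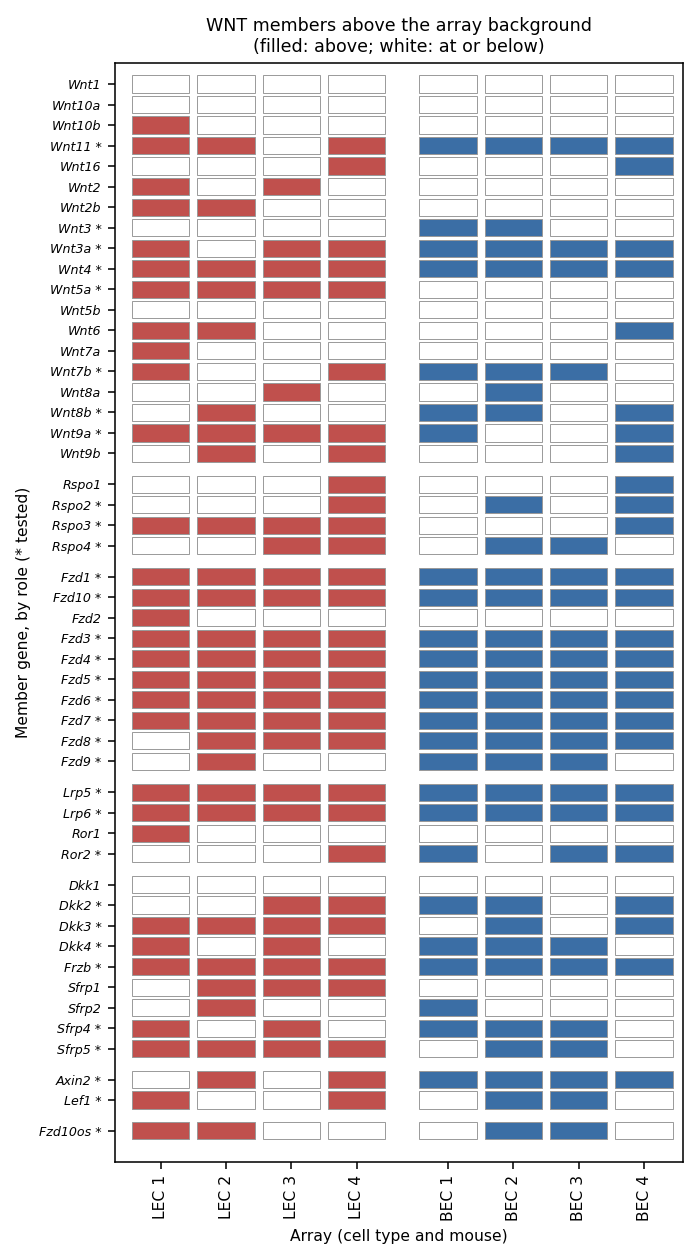
Detection of the 49 genes, grouped by role down the page, on 4 LEC (left) and 4 BEC (right) arrays; filled cells lie above the background level of the array and a star marks the 32 tested genes. The Frizzled and LRP rows are mostly filled on all arrays, the ligand rows mostly empty, and Wnt5a is filled on LEC arrays only.

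Of the 49 genes 32 passed the filter on dim probe sets, which asked for a value above the 40th percentile of the array on at least 4 arrays. The other 17 were 11 ligand genes (Wnt1, Wnt2, Wnt2b, Wnt5b, Wnt6, Wnt7a, Wnt8a, Wnt9b, Wnt10a, Wnt10b and Wnt16) and Fzd2, Rspo1, Ror1, Dkk1, Sfrp1 and Sfrp2. Of the 32, 0 passed on all arrays of 1 cell type and on none of the other, but Wnt5a and Rspo3 passed on 4 LEC and only 1 BEC array.

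Among the 32 genes tested, 3 were called higher in LEC, the ligand genes Wnt5a and Wnt9a and the Dickkopf gene Dkk3, and 0 were called lower. Over all 13259 genes 1.76% were called higher and 2.31% lower, either of which amounts to less than 1 gene in 32. At an unadjusted p under 0.05, 5 members were higher and 3 lower, against 6.98% and 7.42% of all genes. LEC and BEC values did not overlap at 4 members higher in LEC and at 0 lower in LEC, against 5.19% of all genes in each direction. The median difference was 0.52 over the 32 members and 0.08 over all genes tested. With no filter it was 0.62 over the 49 members and 0.18 over all 18193 genes. Over all genes the median was thus larger with the dim genes in, and 17 of the 49 members did not pass the filter. The part of brightness in the member medians was not tested. The count of 3 rested on few arrays. It was 0 without LEC replicate 4 and 1 without LEC replicate 2 or without BEC replicate 2.

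**Figure D3:**
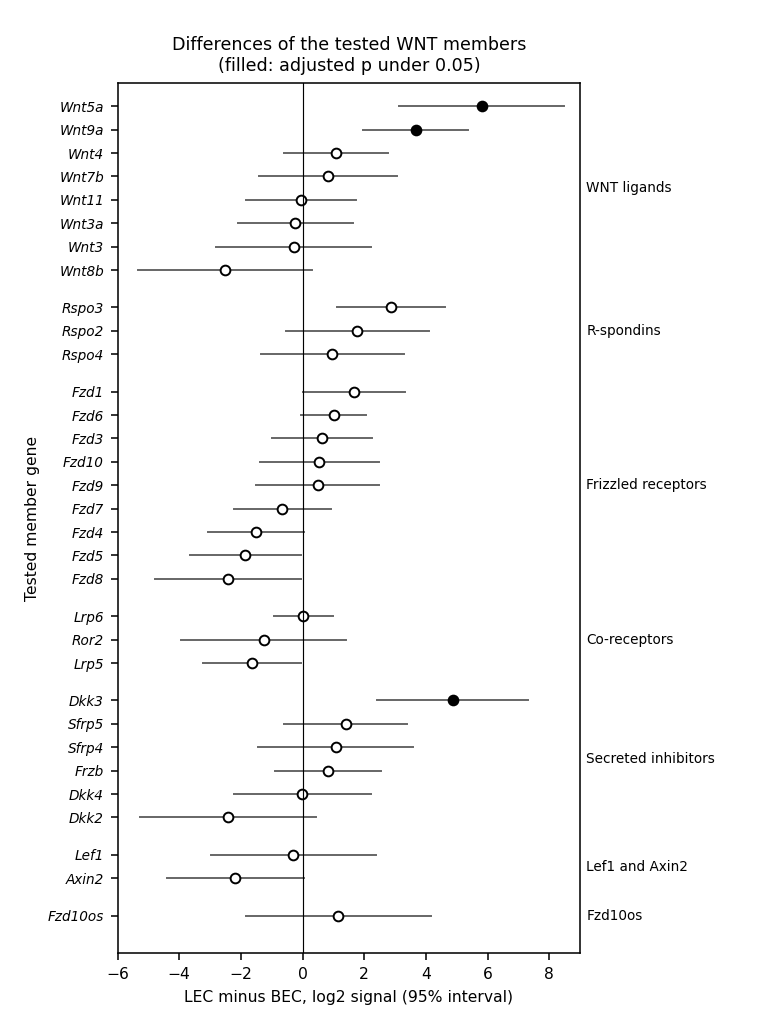
LEC minus BEC difference in log2 signal of the 32 tested genes with its 95% interval from the limma fit, grouped by role; filled points have an adjusted p under 0.05. Wnt5a, Wnt9a and Dkk3 are the filled points, all to the right of 0, and no interval of the Frizzled or LRP genes lies beyond 1 unit from 0 over its whole length.

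Among ligand genes Wnt5a and Wnt9a were called higher in LEC, and 0 of the other 6 tested were called. Wnt5a, the main ligand of the pathway branch that does not use beta-catenin, had log2 signals of 5.28, 5.09, 6.72 and 5.55 in LEC replicates 1 to 4, against -0.22, -2.37, -1.24 and 3.23 in BEC replicates 1 to 4. The lowest LEC value stood above the highest BEC value, and all 4 BEC values were under background. The means were 5.66 ± 0.73 in LEC and -0.15 ± 2.42 in BEC (SD, n = 4 each), with a fitted difference of 5.81 ± 1.24 (SE; limma, adjusted p = 0.0163). Because the BEC values carry no level, the difference is better read as a bound. With values raised to background on each array, Wnt5a was at least 3.88-fold higher in LEC. Background was higher on the LEC than on the BEC array of each mouse, and its part in this and the other bounds was not tested. The other 3 Wnt5a probe sets did not pass the filter. All had higher means in LEC, with groups that did not overlap at 1 of them.

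Wnt5a missed the threshold without LEC replicate 3 (adjusted p = 0.0640) or LEC replicate 4 (adjusted p = 0.0543). It was not tested under the stricter filter. Without LEC replicates 2 and 4, where fibroblast markers stood highest, its difference was 6.15 with adjusted p = 0.144.

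Wnt9a, a ligand known from joint formation in mouse, had signals of 7.90, 7.92, 6.52 and 8.60 in LEC, against 5.75, 3.07, 3.28 and 4.20 in BEC. The groups did not overlap, and BEC replicates 1 and 4 were above background. The means were 7.73 ± 0.87 in LEC and 4.07 ± 1.22 in BEC (SD, n = 4 each). LEC exceeded BEC at least 11.6-fold (fitted difference 3.66 ± 0.79, limma, adjusted p = 0.0167). Its second probe set differed by 2.09 and was not called when every probe set was fitted on its own (limma, adjusted p = 0.442). The adjusted p of Wnt9a was 0.0519 without LEC replicate 2, 0.0618 without LEC replicate 4 and 0.0609 without BEC replicate 2. Its difference was 3.14 without LEC replicates 2 and 4 (adjusted p = 0.194) and 3.32 without BEC replicates 3 and 4 (adjusted p = 0.147).

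The bases before the start of Wnt9a, the called gene with a promoter entry, and of Fzd4, which leaned the other way, show what lies upstream of a gene on either side. Both are 250 bases on the plus strand from RefSeq's annotation of GRCm38.p6, at chr11:59306680-59306929 for Wnt9a and chr7:89404116-89404365 for Fzd4, with CG dinucleotides in capitals.
Wnt9a: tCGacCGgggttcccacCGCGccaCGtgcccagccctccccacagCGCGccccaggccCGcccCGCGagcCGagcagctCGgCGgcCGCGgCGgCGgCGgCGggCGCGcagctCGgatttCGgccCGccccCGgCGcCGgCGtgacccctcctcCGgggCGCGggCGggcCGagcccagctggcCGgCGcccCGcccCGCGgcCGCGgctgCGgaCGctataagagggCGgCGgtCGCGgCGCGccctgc
Fzd4: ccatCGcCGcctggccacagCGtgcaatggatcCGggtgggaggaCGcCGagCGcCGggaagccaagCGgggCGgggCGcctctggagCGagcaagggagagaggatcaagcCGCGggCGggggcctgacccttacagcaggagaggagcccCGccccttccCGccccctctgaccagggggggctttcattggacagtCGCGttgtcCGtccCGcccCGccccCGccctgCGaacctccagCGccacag
The Wnt9a window held 48 CG dinucleotides and the Fzd4 window 25, against a median of 6 over 32851 promoter windows and 21 over the 38 windows of the 32 members with an entry. The core motif of TCF and LEF factors, CTTTGA or on the other strand TCAAAG, was in neither of these 2 windows, in 7 of the 38 member windows and in 13.8% of all windows.

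The other ligand genes showed no call. Wnt4, a ligand known from kidney and gonad development, averaged 6.60 ± 1.12 in LEC and 5.52 ± 1.00 in BEC (SD, n = 4 each; difference 1.08, 95% interval -0.60 to 2.76). Its second probe set differed by 2.32 with groups that did not overlap. It was not called when every probe set was fitted on its own (limma, adjusted p = 0.292). Wnt3a, a ligand that acts through beta-catenin, averaged 5.02 ± 1.51 in LEC and 5.25 ± 0.76 in BEC (difference -0.24, 95% interval -2.11 to 1.64). Wnt3, Wnt7b, Wnt8b and Wnt11 had differences of -2.51 to 0.82 with adjusted p-values of 0.422 to 0.990. The -2.51 was of Wnt8b, whose other 2 probe sets went the other way, with differences of 1.09 and 1.32. Among the untested ligands Wnt2b, a ligand of intestinal mesenchyme, was chosen for mention after its values were seen. Its values were 5.20, 7.79, 2.92 and 3.97 in LEC, against 1.79, 1.56, -0.28 and 1.72 in BEC. These did not overlap, but 2 of 4 LEC values and all BEC values were under background, and with no filter its adjusted p was 0.105.

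R-spondin genes were dim, and 0 of the 3 tested were called. Rspo3, known in mouse as a niche factor of intestinal crypts and as needed for growth of embryonic vessels, had signals of 7.80, 5.19, 5.64 and 6.02 in LEC, against 3.67, 3.19, 2.49 and 3.80 in BEC. The groups did not overlap, all LEC values were above background, and of the BEC values replicate 4 was. The means were 6.16 ± 1.14 in LEC and 3.29 ± 0.59 in BEC (SD, n = 4 each), a difference of 2.87 ± 0.82 that missed the threshold (limma, adjusted p = 0.0726). With values raised to background the difference was 2.37 and its adjusted p was 0.0371. That fit raised the values of all genes, and 284 genes were called higher in it, against 234 in the main fit. What lowered the adjusted p of Rspo3 was not tested. The second Rspo3 probe set gave 3.77 (adjusted p = 0.223). Rspo2 averaged 4.20 ± 0.52 in LEC and 2.42 ± 1.96 in BEC, and Rspo4 averaged 4.49 ± 1.38 in LEC and 3.53 ± 1.81 in BEC (SD, n = 4 each; adjusted p = 0.505 and 0.758 by limma).

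**Figure D4:**
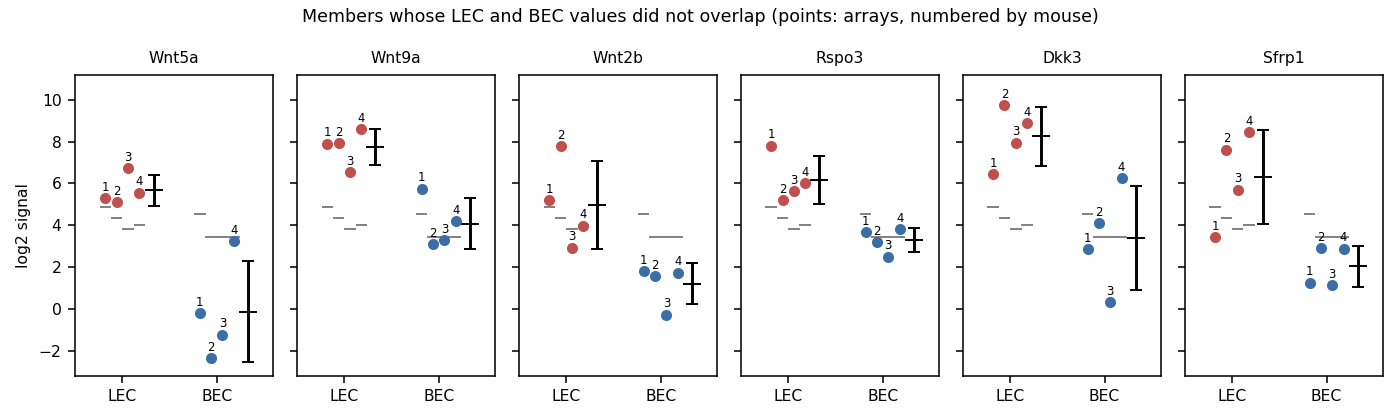
Log2 signal of Wnt5a, Wnt9a, Wnt2b, Rspo3, Dkk3 and Sfrp1 on 4 LEC and 4 BEC arrays, numbered by mouse, with group means ± SD (black) and the background level of each array (grey ticks). The 6 genes were picked for this figure because the lowest LEC point stands above the highest BEC point at each. Of all 34945 probe sets, 4.27% were separated in this direction. Wnt2b and Sfrp1 did not pass the filter, and most BEC points lie at or under background.

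Among Frizzled genes, 0 of the 9 tested were called, and the differences ran both ways. Fzd4, the receptor of norrin in retinal vessels, leaned to BEC at each of its 3 probe sets. The probe set of the highest mean read 7.34, 11.77, 8.71 and 9.73 in LEC, against 10.45, 10.59, 10.95 and 11.64 in BEC. LEC replicate 2 stood above every BEC array and the other LEC replicates under all of them. The means were 9.39 ± 1.86 in LEC and 10.91 ± 0.53 in BEC (SD, n = 4 each), a difference of -1.52 ± 0.72 (limma, adjusted p = 0.361). It depended on single LEC arrays, at -2.31 without replicate 2 (adjusted p = 0.0431) and -0.84 without replicate 1, the array that stood apart (adjusted p = 0.639).

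A second Fzd4 probe set separated the cell types. It read 7.39, 8.09, 7.72 and 7.46 in LEC, against 9.14, 9.87, 9.26 and 10.29 in BEC, with no overlap. When every probe set was fitted on its own it was 3.94-fold lower in LEC (difference -1.98, limma, adjusted p = 0.0282, where 2.09% of 23980 probe sets were called lower and 1.61% higher). The third probe set read 5.45, 7.16, 8.20 and 8.91 in LEC, against 9.11, 9.73, 7.75 and 6.83 in BEC, and its groups overlapped (difference -0.92, adjusted p = 0.698).

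Fzd6, a receptor known for planar polarity of hair and skin, leaned to LEC. It read 10.59, 10.63, 8.86 and 9.55 in LEC, against 9.25, 9.10, 8.16 and 9.07 in BEC, higher in LEC in 4 of 4 mice though the ranges met. The difference of 1.01 (95% interval -0.04 to 2.07) was not called (limma, adjusted p = 0.374). Its other 2 probe sets differed by 1.04 and 0.93. Fzd1 averaged 7.32 ± 1.23 in LEC and 5.66 ± 0.91 in BEC (SD, n = 4 each; difference 1.66, limma, adjusted p = 0.343).

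Fzd5 and Fzd8 had lower means in LEC at their probe sets of the highest mean, and higher means in LEC at their other probe sets. Fzd5, which matures Paneth cells in mouse intestinal epithelium, read 6.46, 5.59, 7.49 and 4.37 in LEC, against 9.15, 7.05, 8.84 and 6.31 in BEC, lower in LEC in 4 of 4 mice. The difference was -1.86 ± 0.84 and was not called (limma, adjusted p = 0.327). Epithelial markers stood highest in LEC replicate 3 and BEC replicates 3 and 4. Of these, LEC 3 and BEC 3 had high Fzd5 values in their groups, while BEC 4 had the lowest of its group. The other Fzd5 probe set, under background on all BEC arrays and not past the filter, differed by 1.63. Fzd8 averaged 4.44 ± 2.20 in LEC and 6.86 ± 1.57 in BEC (SD, n = 4 each; difference -2.42, limma, adjusted p = 0.333). Its difference was -1.38 without LEC replicate 1 (adjusted p = 0.577), and its other probe set, which passed the filter, differed by 0.14 (adjusted p = 0.970). Fzd3, Fzd7, Fzd9 and Fzd10 had differences of -0.66 to 0.62, with adjusted p-values of 0.757 to 0.880.

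**Figure D5:**
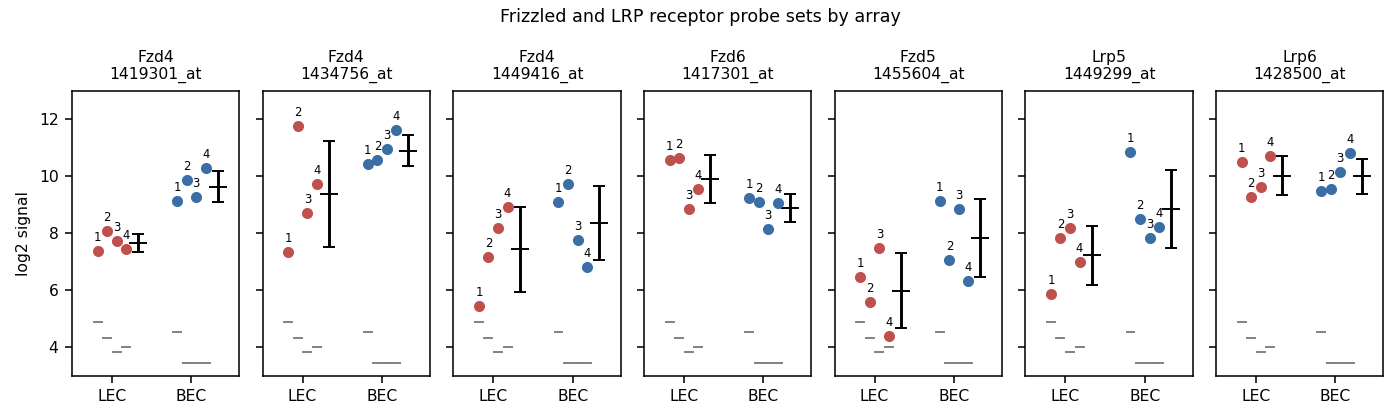
Log2 signal of the 3 Fzd4 probe sets and of Fzd6, Fzd5, Lrp5 and Lrp6 on 4 LEC and 4 BEC arrays, numbered by mouse, with group means ± SD (black) and array background (grey ticks). The groups are apart only at the Fzd4 probe set in the leftmost panel, and the Lrp6 means nearly coincide.

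The co-receptor genes gave no call among the 3 tested. Lrp6 had nearly equal means, 10.02 ± 0.69 in LEC and 10.00 ± 0.61 in BEC (SD, n = 4 each), and the 95% interval of the difference, -0.94 to 0.98, leaves room for a change of almost 1 log2 unit either way. Lrp5, which works with Fzd4 in retinal vessels, read 5.85, 7.84, 8.18 and 7.01 in LEC, against 10.87, 8.50, 7.82 and 8.23 in BEC. It was lower in LEC in 3 of 4 mice, with BEC replicate 1 far above the other arrays. The difference was -1.64 ± 0.74 (limma, adjusted p = 0.328), and -0.96 without BEC replicate 1 (adjusted p = 0.574). Ror2, a receptor of WNT5A, averaged 2.67 ± 2.07 in LEC and 3.93 ± 1.78 in BEC (SD, n = 4 each) and above background on 1 LEC and 3 BEC arrays (limma, adjusted p = 0.720). Ror1 did not pass the filter. Its probe set of the highest mean was above background on 1 LEC array and 0 BEC arrays, and another on 1 LEC and 1 BEC array.

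Among secreted inhibitors Dkk3 was called higher in LEC and 0 of the other 5 tested were called. Dkk3, a divergent Dickkopf protein that is not a typical LRP antagonist, read 6.44, 9.74, 7.94 and 8.90 in LEC, against 2.86, 4.10, 0.32 and 6.26 in BEC. The groups did not overlap, although LEC replicate 1 and BEC replicate 4 came close, and 2 BEC arrays were above background. The means were 8.25 ± 1.42 in LEC and 3.39 ± 2.48 in BEC (SD, n = 4 each). LEC exceeded BEC at least 12.8-fold (fitted difference 4.87 ± 1.14, limma, adjusted p = 0.0271). A second probe set also had groups that did not overlap and differed by 2.80 (adjusted p = 0.191).

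Dkk3 was the least stable of the 3 calls over the alternatives run, with 9 of 19 above the threshold. Its adjusted p was 0.0549 to 0.0946 without LEC replicate 2 or 4 or without BEC replicate 1, 2 or 3, and 0.0524 with equal array medians. At the probe set that was called, the LEC arrays with the highest Dkk3 were replicates 2 and 4, those with the highest fibroblast markers. At the second probe set LEC replicate 1, with the lowest fibroblast sum of the LEC arrays, was the highest, at 6.37, against 6.23, 5.49 and 6.22 in LEC replicates 2 to 4. Without LEC replicates 2 and 4 the difference was 3.80 with adjusted p = 0.274.

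Sfrp1, which binds WNT ligands, did not pass the filter and was chosen for mention after its values were seen. It read 3.41, 7.62, 5.69 and 8.44 in LEC, against 1.25, 2.88, 1.11 and 2.87 in BEC, with no overlap and no BEC value above background. With no filter its difference was 4.26 and its adjusted p 0.0540. All 5 of its probe sets had higher means in LEC. Replicates 2 and 4, again the arrays of high fibroblast markers, were the highest LEC arrays at this one and at most of the others.

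The remaining inhibitor genes overlapped between the cell types. Frzb, a secreted WNT antagonist, averaged 4.87 ± 0.78 in LEC and 4.04 ± 0.76 in BEC, higher in LEC in 4 of 4 mice (SD, n = 4 each; limma, adjusted p = 0.716). Dkk2, a ligand of LRP5 and LRP6, read 0.69, 0.55, 5.32 and 5.64 in LEC, against 6.31, 6.53, 2.96 and 6.06 in BEC. It was split within LEC, where replicates 1 and 2 were under background and 3 and 4 above it (limma, adjusted p = 0.446). Sfrp4, Sfrp5 and Dkk4 had differences of -0.01 to 1.39 with adjusted p-values of 0.554 to 0.999.

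The target and nuclear genes of the beta-catenin branch were not called. Axin2 read 2.93, 6.15, 1.95 and 5.44 in LEC, against 7.36, 6.52, 6.91 and 4.41 in BEC. LEC replicates 1 and 3 were under background and all BEC arrays above it, with a difference of -2.18 ± 1.03 (limma, adjusted p = 0.359). Its second probe set went the other way, with a difference of 1.64 (adjusted p = 0.485), so the 2 probe sets disagree in direction. Lef1 averaged 3.56 ± 2.17 in LEC and 3.87 ± 1.87 in BEC (SD, n = 4 each; difference -0.31, 95% interval -2.98 to 2.37). Its sign changed under 4 of 18 alternatives.

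Over all probe sets, 10 of the 95 had LEC values wholly above the BEC values and 1, of Fzd4, wholly below, against 4.27% and 3.63% of all 34945 probe sets. The 10 belong to 8 genes: Wnt5a and Dkk3 with 2 each, and Wnt2b, Wnt4, Wnt9a, Rspo3, Fzd7 and Sfrp1 with 1 each. The Fzd7 probe set was under background on all 8 arrays. Of the 14 genes with more than 1 probe set past the filter, 10 had differences of 1 sign and 4 of both signs.

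Outside these genes, 1 gene of the pathway was called. Of 77 other WNT pathway genes, 65 were tested, 0 were called higher and 1 was called lower in LEC, which is near the 1.76% and 2.31% called over all genes. Their median difference was -0.24, against 0.08 over all genes tested. At an unadjusted p under 0.05, 8 were higher and 5 lower in LEC, against 6.98% and 7.42% of all genes. The groups did not overlap at 3 higher and 2 lower in LEC, against 5.19% of all genes in each direction. The called gene was Gpc4, a glypican that carries heparan sulfate and modulates WNT ligands at the cell surface. It read 4.87, 3.89, 6.98 and 5.05 in LEC, against 8.81, 7.79, 10.55 and 9.07 in BEC, with no overlap. It was at least 13.4-fold lower in LEC (fitted difference -3.85 ± 0.78, limma, adjusted p = 0.0116) and called under 17 of the 19 alternatives run, but not without LEC replicates 2 and 4 (adjusted p = 0.109) or without BEC replicates 3 and 4 (adjusted p = 0.196).

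Of the 7 other genes of WNT secretion and of the extracellular space that were tested, 0 were called, and 2 had higher means in LEC. Wls, the carrier that brings WNT ligands to the cell surface, read 9.47, 7.45, 7.36 and 7.38 in LEC, against 7.57, 5.16, 5.36 and 5.24 in BEC. In each cell type mouse 1 was the highest, and within each mouse LEC was higher (difference 2.09, limma, adjusted p = 0.188). Kremen1, a receptor of Dickkopf proteins, averaged 8.37 ± 0.46 in LEC and 6.61 ± 1.03 in BEC (SD, n = 4 each; limma, adjusted p = 0.180). Tpbg, a membrane glycoprotein that dampens WNT signalling, averaged 7.07 ± 2.11 in LEC and 7.48 ± 1.05 in BEC (SD, n = 4 each; limma, adjusted p = 0.902).

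Among other receptors and accessory proteins, Adgra2, which assists WNT7 signalling in brain capillaries, averaged 8.22 ± 1.48 in LEC and 4.08 ± 2.64 in BEC (SD, n = 4 each; difference 4.13, limma, adjusted p = 0.0728). It was called when a replicate block for the mouse was added (adjusted p = 0.0161), and was chosen for mention on that ground after its values were seen. Its groups overlapped, and it was called under 3 of the 19 alternatives run. LEC replicates 2 and 4, the arrays of high fibroblast markers, were its highest LEC arrays, at 8.65 and 9.92. Without them the difference was 3.06 (limma, adjusted p = 0.414). Tspan12, the partner of Fzd4 in norrin signalling, averaged 6.21 ± 0.85 in LEC and 7.51 ± 0.75 in BEC, lower in LEC in 4 of 4 mice (SD, n = 4 each; limma, adjusted p = 0.410). Ryk, a WNT co-receptor, averaged 6.03 ± 0.78 in LEC and 6.75 ± 0.66 in BEC (SD, n = 4 each; limma, adjusted p = 0.703). Of the R-spondin receptors and the ligases they restrain, 2 were tested: Lgr4 differed by 0.22 and Znrf3 by 1.16, with adjusted p-values of 0.937 and 0.718.

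Among 8 planar cell polarity genes 0 were called. At an unadjusted p under 0.05, 2 were higher and 2 lower in LEC. Prickle1, a cytoplasmic polarity protein, averaged 6.93 ± 0.60 in LEC and 8.56 ± 0.80 in BEC, with no overlap (SD, n = 4 each; limma, adjusted p = 0.187). Daam1, a formin that links Dishevelled to the cytoskeleton, averaged 8.40 ± 0.46 in LEC and 7.11 ± 0.81 in BEC, higher in LEC in 4 of 4 mice (SD, n = 4 each; limma, adjusted p = 0.317). Vangl1, a membrane polarity protein, differed by -0.28 (adjusted p = 0.908). Celsr1 was chosen for mention after its values were seen. It differed by 3.77 with groups that overlapped (limma, adjusted p = 0.119).

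Among cytoplasmic and nuclear genes 0 were called by the probe set of the highest mean. When every probe set was fitted on its own, Ctnnbip1, an inhibitor of the binding of beta-catenin to TCF factors, was called lower in LEC at 1 probe set (difference -4.86, limma, adjusted p = 0.0229) and not at the other (difference -1.58, adjusted p = 0.395). Ctnnb1, which encodes beta-catenin, averaged 13.16 ± 0.25 in LEC and 12.96 ± 0.16 in BEC (SD, n = 4 each; difference 0.20, 95% interval -0.20 to 0.60). Tnks2, a tankyrase that marks axin for removal, had a difference of -0.05 (95% interval -0.58 to 0.48). Fbxw11 and Csnk1d, both of the machinery that turns over beta-catenin, differed by -0.33 and 0.49. Tle4, a co-repressor, and Tcf7l2, a partner of beta-catenin on DNA, differed by 0.19 and -0.68. The adjusted p-values of these 4 genes were 0.700 to 0.915. Tle1, another co-repressor, was chosen for mention after its values were seen. It differed by 2.77 with no overlap (limma, adjusted p = 0.0910). Of the 11 nuclear genes tested, 1 was higher and 1 lower in LEC at an unadjusted p under 0.05. Of the 22 cytoplasmic genes tested 0 were called in either direction, and 1 had an unadjusted p under 0.05. Of 6 target genes tested 0 were called, and those of the highest mean differed in both directions. Myc averaged 7.54 ± 1.43 in LEC and 4.65 ± 1.26 in BEC, with no overlap (SD, n = 4 each; limma, adjusted p = 0.0949), and Ccnd1 averaged 9.55 ± 0.58 in LEC and 9.19 ± 0.22 in BEC (adjusted p = 0.769 by limma). Bambi, a target that inhibits TGF-beta receptors, read 0.28, 7.37, 4.70 and 5.84 in LEC, against 7.26, 8.19, 8.20 and 6.54 in BEC. It was lower in LEC in 4 of 4 mice, with LEC replicate 1 far under the other arrays (difference -3.00, limma, adjusted p = 0.259).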

How the data were processed

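The authors deposited log2 values of 45101 probe sets, 1 column per array. MAS5 is named in the submitters' processing notes, with no version in the sources used here; the log2 scale was read from the values, whose 2% trimmed mean was 100.04 on each array after conversion to linear signal. That scaling assumes equal total signal in both cell types. Symbols came from the platform annotation of the array, updated to GRCm38.p6 through the gene number. The 64 control probe sets were left out.

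Per gene the probe set of the highest mean was kept where above the 40th percentile of its array (over all probe sets that are not controls) on at least 4 of 8 arrays. For these 13259 genes limma 3.58.1 (R 4.3.3; lmFit, eBayes with intensity trend) compared cell types with no other term. Two-sided p-values were adjusted by Benjamini and Hochberg over all genes. The script was tested on simulated data. Background is the 95th percentile of 27 Bacillus subtilis control probe sets. Where the dimmer group had an array under it, folds are given as "at least", from values raised to it.

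Replicate numbers pair LEC and BEC of 1 mouse, per the labels and the design text. Deviations from group means correlated at 0.142, 0.0776, 0.181 and 0.0510 within mice 1 to 4. Genes named are those called or with an unadjusted p under 0.05, the 3 of the highest mean per role, and those the member rule names singly; of the other pathway genes, those called and up to 3 of the highest mean per group. A few others are marked as chosen after their values were seen. Members, lists and background rule were chosen with earlier results of these data known. No detection call or scan batch was used. The mice are separate animals, and 4 arrays per group limit the precision.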

Additional observations from a re-analysis of the deposited data

Results flagged for a closer look

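Among the 20 members named by the rule, each cell type's 4 arrays were checked for an array far from the other 3, which made 40 groups. In 4 of them the lowest or highest array's gap to its neighbour took up more than the share of the range that Dixon's test allows, and chance gives about 1 in 20. Fzd6 had its lowest BEC value, 8.16, in replicate 3. Ror2 had 1.28 in BEC replicate 2, and Dkk2 had 2.96 in BEC replicate 3, both under background while the other 3 BEC arrays were above it. Frzb had its highest BEC value, 5.18, in replicate 1, against 3.66 to 3.68 in the others. None of these genes was called.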

How the results depend on the processing

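The 3 member calls kept their sign under every alternative run, but not always their side of the threshold. Wnt5a was called under 15 of 18 alternatives (adjusted p = 0.00531 to 0.144), Wnt9a under 14 of 19 (0.00577 to 0.194) and Dkk3 under 10 of 19 (0.00758 to 0.274). Dkk3 also missed it with no intensity trend (0.0696) and with equal hybridisation controls (0.0916), an alternative chosen after seeing the data. Leaving out each array in turn gave 0 to 3 members higher and 0 to 1 lower, 0 to 1 other pathway genes higher (Celsr1, without LEC or BEC replicate 3) and 1 lower, and 156 to 227 genes higher and 180 to 329 lower over all genes, with 180 without BEC replicate 2 and 200 without BEC replicate 4. Fitting every probe set gave 1 member lower (Fzd4) and 2 other pathway genes lower, Gpc4 and Ctnnbip1. The mouse as a replicate block, and values raised to background, each gave 1 other pathway gene higher (Adgra2). The block changed no call of a named member, and its counts over all genes were 236 and 298. Without LEC replicates 2 and 4 together, chosen after seeing the data, there were 0 members higher, 1 lower (Fzd4), 0 other pathway genes lower, and 88 genes higher and 222 lower over all genes. The cause of this uneven loss was not tested. Without BEC replicates 3 and 4, likewise chosen later, 1 other pathway gene was higher (Adgra2), 0 were lower, and 143 and 102 genes were called. The split of 234 genes higher and 306 lower was 162 and 336 with equal array medians and 123 and 280 with equal hybridisation controls, which moved the median difference of all genes to -0.20 and -0.31. Differences near 0 are relative to the deposited scale: the sign of Lrp6 changed under 6 of 19 alternatives, and that of Wnt3a under 4 of 19. Leaving out 1 array moved the uncalled differences of Wnt4, Rspo2, Rspo4, Fzd4, Fzd8, Lrp5, Ror2, Dkk2 and Frzb by over 1.5 times, with no change of sign. Signals under background limit the size of the Wnt5a, Wnt2b, Sfrp1 and R-spondin differences.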
